A study of Mus musculus with 24 samples.

Results

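The genes described here encode the receptors for noradrenaline and adrenaline, acetylcholine, dopamine and histamine in the mouse. They were chosen by symbol (Adra1, Adra2, the Adrb genes, Chrm1 to Chrm5, the Chrn subunits, Drd1 to Drd5 and Hrh1 to Hrh4), without use of any measured value. The rule found 39 of the 24062 genes in the count files, where the dopamine D1 receptor is listed as Drd1a. They were followed in brain RNA from Celf6 knockout (KO) and wild-type (WT) mice at postnatal day 9, in tissue taken just behind the thalamus with the cortex removed. The protein made from Celf6 binds RNA and belongs to the CELF family, known for roles in splicing and RNA stability. The 4 groups were KO TRAP (n = 5), WT TRAP (n = 5), KO input (n = 5) and WT input (n = 3). Input is total RNA of the dissected tissue, with all its cell types. TRAP, translating ribosome affinity purification, pulls down ribosome-bound RNA from cells that carry a tagged ribosomal protein. The labels describe the TRAP allele as specific to serotonin cells without naming its driver, and they give neither strain, sex nor the kind of Celf6 mutation. The design text gives 5 KO and 5 WT brains, and nothing says which TRAP and input samples share a brain. RNA of other cells in the tissue can be carried along in a pull-down.

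Noradrenaline, acetylcholine, dopamine and histamine reach serotonin neurons of the raphe nuclei from other cell groups. Adrenergic, muscarinic, dopamine and histamine receptors act through G proteins: alpha-1 adrenergic, histamine H1 and the odd-numbered muscarinic receptors through Gq, beta adrenergic, D1-type and H2 receptors through Gs, and alpha-2 adrenergic, D2-type, H3 and the even-numbered muscarinic receptors through Gi or Go. Nicotinic receptors are ion channels built from subunits, most often alpha-4 with beta-2 in the brain. Noradrenergic drive through alpha-1 receptors is known to support the firing of dorsal raphe serotonin neurons.

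Depth ran between 3390423 and 6861963 counts over the 19 libraries used, with a count for 13788 to 15892 genes. WT input 4, which the labels mark as an outlier, held 325072 counts and was left out. WT input replicates 2 and 3 were as alike as repeat sequencing runs of 1 library, so their difference was within sampling noise (chi-square per gene 1.34, against 1.37 to 2.58 for 4 repeat-run pairs and 24.7 to 90.3 for 35 other pairs in the same group). Their counts were added up as WT input 2/3 and counted as 1 sample. Celf6 was at 114, 21.4, 56.6, 26.9 and 36.6 CPM (counts scaled to a common library size, with TMM scaling for composition) in KO TRAP libraries and at 149, 186, 170, 116 and 84.8 CPM in WT TRAP libraries. In KO input it was at 4.78 to 22.2 CPM, against 33.2, 15.5 and 103 CPM in WT input 1, 2/3 and 5. Celf6 counts therefore remained in KO libraries and the ranges overlapped, and which part of the gene is deleted is not given in the sources used here. The library labelled KO TRAP 1 and the library labelled WT input 5 held both Xist (70.8 and 36.5 CPM) and Y-linked RNA (28.6 and 9.79 CPM summed), whereas in the other 16 libraries only 1 kind passed the thresholds used (Xist above 10 CPM, summed Y-linked RNA above 5 CPM). Differences of the named receptors were also computed without these 2 libraries. All 8 serotonergic markers were higher in TRAP than in input. They included Tph2, the enzyme that starts serotonin synthesis in neurons (log2 fold change 5.89 ± 0.36, SE), and Slc6a4, the serotonin transporter (5.37 ± 0.32). Of the oligodendrocyte lineage markers 4 of 7 were lower in TRAP, and of the astrocyte markers 3 of 7.

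A few receptors made up most of the signal. Together the 39 genes held 579 ± 72.5 CPM (here without TMM scaling) in KO TRAP, 569 ± 167 in WT TRAP, 566 ± 96.6 in KO input and 485 ± 97.9 in WT input (SD), and the ranges of the 4 groups overlapped. Per kilobase of exon, the highest mean levels in TRAP belonged to Adra1b, the alpha-1B adrenergic receptor (50.9 CPM per kilobase), Chrna4, the nicotinic alpha-4 subunit (36.7), Drd2, the dopamine D2 receptor (11.7), Chrm2, the muscarinic M2 receptor (10.3), and Chrnb2, the nicotinic beta-2 subunit (10.2). In input the order was Chrna4 (48.2 CPM per kilobase), Drd2 (14.6), Chrnb2 (13.4), Adra1b (10.8) and Adra2a, the alpha-2A adrenergic receptor (8.60). Adra1b alone took 32.0% ± 7.01 of all receptor counts in KO TRAP and 29.6% ± 8.76 in WT TRAP, against 6.69% ± 2.60 in KO input and 8.30% ± 1.80 in WT input (SD). The neuronal nicotinic subunits together took 40.9% ± 3.57 in KO TRAP and 46.5% ± 7.64 in WT TRAP, against 63.5% ± 5.93 in KO input and 63.5% ± 3.12 in WT input. Each share depends on the others, since they add up to 100%.

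**Figure D1:**
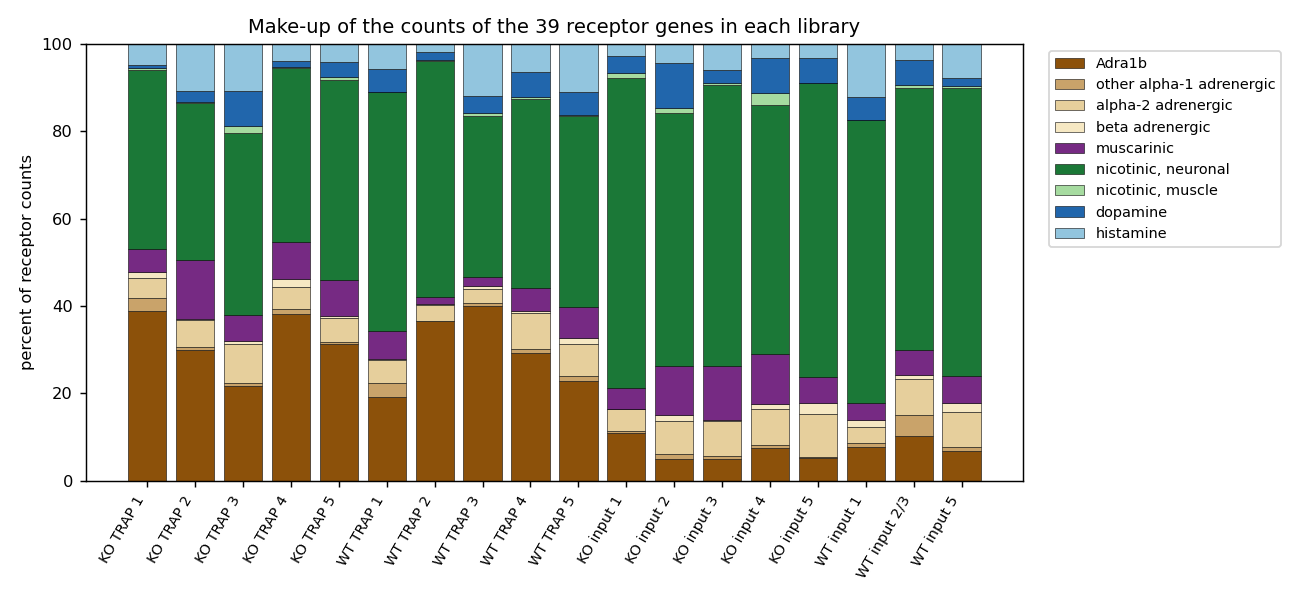
Percent of the counts of the 39 receptor genes taken by Adra1b and by each receptor family (stacked colours) in each of 18 libraries, TRAP libraries left of input libraries. Adra1b took 19.2% to 39.9% in TRAP libraries and 4.89% to 10.9% in input libraries.

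Low levels and uneven libraries marked most of the other receptors. Counts were seen for 37 of the 39 genes, and for 11 in each of the 18 libraries. Drd3, the dopamine D3 receptor, and Hrh4, the histamine H4 receptor, had 0 of 97568183 counts, which allows up to 0.0307 CPM without TMM scaling. The subunits Chrna9 and Chrna10, known from cochlear hair cells, had 2 and 3 counts in all, and the muscle subunits Chrnd and Chrng had 3 and 1. At 50 CPM or more on average stood 3 genes, with a standard deviation between libraries of a group of 0.40 to 0.58 on the log2 CPM scale. For the 7 genes at 10 to 50 CPM it was 0.67 to 1.43, and for the 17 genes at 1 to 10 CPM it was 1.22 to 1.94. Repeat sequencing of the same libraries gave a median absolute log2 ratio of only 0.17 to 0.29 over receptors with at least 20 counts. Among the 11 receptors with a count in each library, the highest and lowest libraries of Chrnb2 within a group differed by at most 2.11 times, the smallest such ratio, while those of Chrm2 differed by up to 34.1 times.

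**Figure D2:**
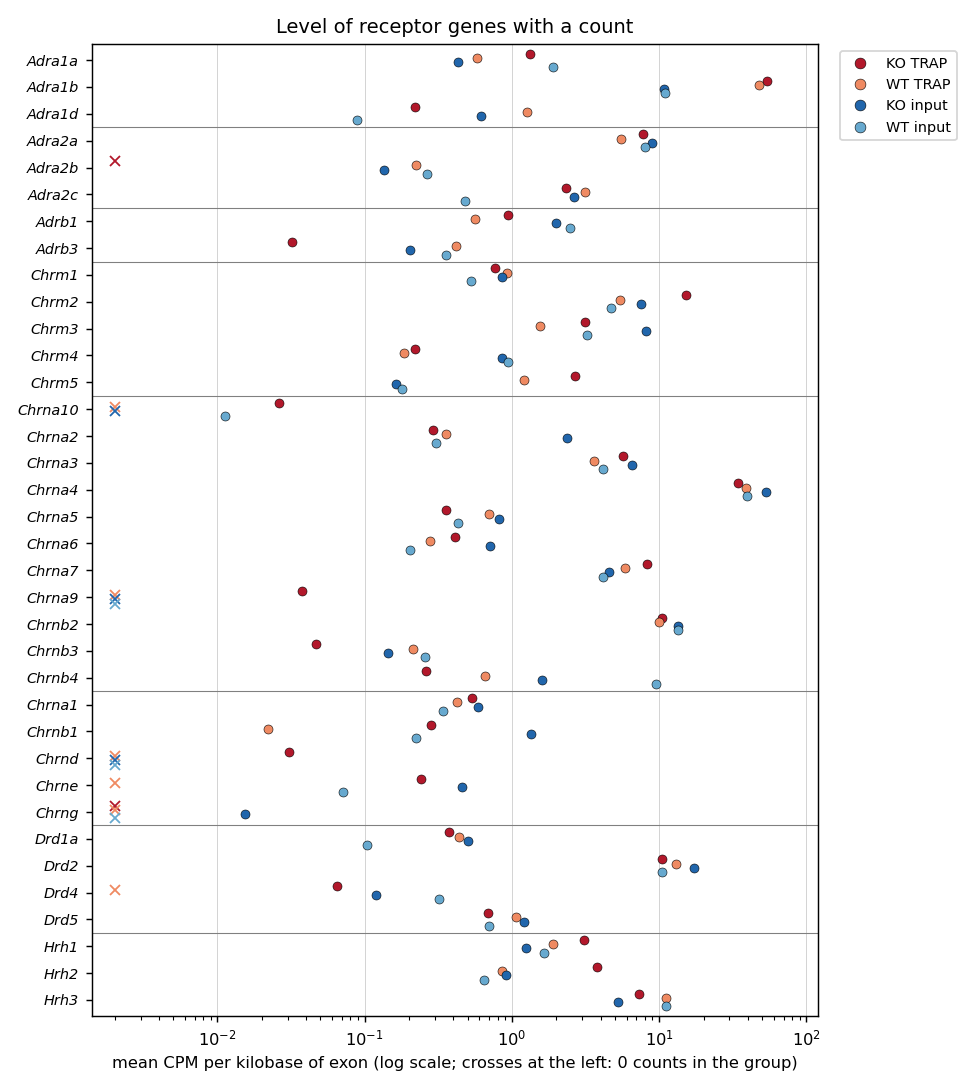
Mean level in CPM per kilobase of exon (log axis) for receptor genes with a count, by group (colours); crosses at the left mark groups with 0 counts. Adra1b stood at 54.3 and 47.5 CPM per kilobase in KO TRAP and WT TRAP and at 10.7 and 10.9 in KO input and WT input.

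TRAP was compared with input to ask which receptor transcripts are over- or under-represented on the ribosomes of the tagged cells. Of 39 receptor genes, 30 passed the filter on low counts. Adra1b was the only one called higher and Chrnb4, the nicotinic beta-4 subunit, the only one called lower (edgeR quasi-likelihood test, adjusted p below 0.05). Over all 14261 genes tested, 2.41% were called higher and 2.31% lower, so 1 of 30 in each direction is near the background. The 9 receptors too low to test were Chrna9, Chrna10, Chrnb1, Chrnd, Chrne, Chrng, Drd3, Drd4 and Hrh4. At an unadjusted p below 0.05 stood 3 of the 30, against 19.0% of all genes. The median log2 fold change over the 30 was -0.01, with 15 above and 15 below 0, against 0.03 for all genes tested. The difference also depends on the level in input, which holds all cell types, so a lower value does not by itself describe the tagged cells. Bulk RNA also cannot tell fewer tagged cells with the transcript from less of it per cell.

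**Figure D3:**
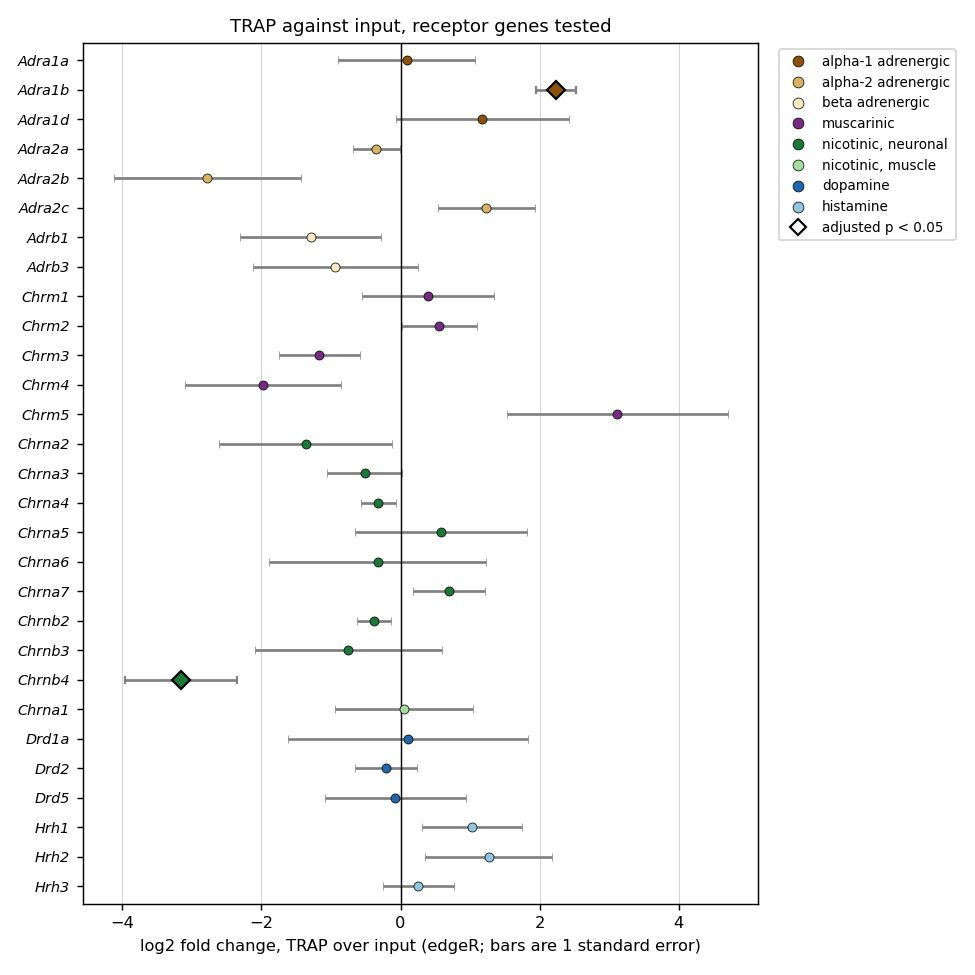
Log2 fold change of TRAP over input with its standard error (bars) for receptor genes tested, coloured by family; diamonds mark an adjusted p below 0.05. Adra1b at 2.24 and Chrnb4 at -3.15 are the diamonds, and the widest bars belong to low-count genes such as Chrm5 and Drd1a.

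Among the alpha-1 receptors, which couple to Gq, only Adra1b passed the test. Adra1b was at 244, 203, 125, 190 and 205 CPM in KO TRAP and at 74.8, 228, 205, 232 and 108 CPM in WT TRAP. In input it was at 69.6, 18.9, 29.2, 39.4 and 33.4 CPM in KO and at 32.7, 42.8 and 40.9 CPM in WT. Each TRAP library stood above each input library, by little between WT TRAP 1 and KO input 1, a separation seen in 0.449% of all genes tested. Adra1b was 4.71-fold higher in TRAP (log2 fold change 2.24 ± 0.29, SE; edgeR adjusted p = 1.11e-05) and ranked 31 of 14261 genes by p. The difference was 2.34 in KO libraries alone (adjusted p = 0.00154) and 2.11 in WT libraries alone (adjusted p = 0.0134). It was 2.22 within sequencing run 1 and 2.19 within run 2, and 2.20 without KO TRAP 1 and WT input 5 (adjusted p = 0.000401). The serotonergic markers moved with it, at a summed 4070 to 10200 CPM in TRAP libraries against 134 to 263 CPM in input libraries, and all 8 were present in each group. Their part in the result was not tested. The gene lies on chromosome 11 (mm10, 43774605 to 43901237, minus strand, 5 exons) with no other listed gene over its exons.

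The other alpha-1 receptors were far lower. Adra1a averaged 4.64 CPM in TRAP and 4.79 CPM in input, and Adra1d 1.78 and 1.00 CPM. Their TRAP to input differences were 0.09 ± 0.98 and 1.18 ± 1.25 (log2, SE), both short of the threshold.

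The alpha-2 receptors couple to Gi and act both as autoreceptors of noradrenergic cells and on their targets. Adra2a averaged 25.3 CPM in TRAP and 32.7 CPM in input (log2 fold change -0.35 ± 0.34, adjusted p = 0.637). Adra2b was listed at 0 in all 5 KO TRAP libraries and at 0, 0, 0.352, 2.17 and 1.89 CPM in WT TRAP, against 0.169, 2.50, 0, 0 and 0 CPM in KO input and 0.349, 1.27 and 1.48 CPM in WT input. Its fitted TRAP to input difference of -2.78 ± 1.35 depends on those zeros and missed the threshold (adjusted p = 0.266). Within runs it was -1.20 in run 1 and 0.19 in run 2, so the direction did not hold in both.

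Of the beta receptors, which raise cyclic AMP through Gs, Adrb1 averaged 1.87 CPM in TRAP and 5.38 CPM in input, and Adrb3 had 3 counts over KO TRAP, 28 over WT TRAP, 14 over KO input and 28 over WT input. Neither passed the threshold.

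No muscarinic receptor passed the test. Chrm2 averaged 21.0 CPM in TRAP and 13.2 CPM in input (log2 fold change 0.56 ± 0.54, adjusted p = 0.633). Chrm3, the Gq-coupled M3 receptor, was at 17.6, 4.24, 15.8, 9.78 and 2.16 CPM in KO TRAP and at 5.21, 4.07, 0.528, 9.14 and 5.67 CPM in WT TRAP, against 23.5, 1.47, 38.2, 43.3 and 21.8 CPM in KO input and 3.84, 10.9 and 16 CPM in WT input. Its difference of -1.17 ± 0.58 had an adjusted p of 0.274, and the groups overlapped. The scarcer muscarinic receptors, named after their values were seen, were uneven. Chrm5 averaged 3.41 CPM in TRAP and 0.294 CPM in input (log2 fold change 3.11 ± 1.59, edgeR adjusted p = 0.290), with a count in 6 of 10 TRAP libraries, and Chrm4 averaged 0.559 and 2.44 CPM (-1.98 ± 1.12, adjusted p = 0.350). Chrm1 averaged 5.31 CPM in TRAP and 4.58 CPM in input. The exons of Chrm2 share 79 bases with 9330158H04Rik and those of Chrm4 share 25 bases with Mdk, and because reads were counted without strand, reads there cannot be assigned to either gene.

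The nicotinic subunits split between 2 abundant partners and many scarce ones. Chrna4 was at 186, 137, 166, 67.7 and 207 CPM in KO TRAP and at 108, 285, 112, 236 and 125 CPM in WT TRAP, against 333, 136, 229, 179 and 308 CPM in KO input and 147, 165 and 212 CPM in WT input. Chrnb2 was at 55.2, 67.6, 48.8, 54.6 and 52.8 CPM in KO TRAP and at 60.8, 36.3, 64.5, 67.4 and 39.9 CPM in WT TRAP, against 52.9, 47.3, 71.3, 88.4 and 99.6 CPM in KO input and 84.2, 45.5 and 86.3 CPM in WT input. TRAP and input overlapped for both subunits, and their log2 fold changes were close to each other at -0.32 ± 0.25 and -0.38 ± 0.24 (edgeR adjusted p = 0.533 and 0.429). An 8-base stretch of Chrnb2 exon is shared with Adar. The alpha-7 subunit Chrna7, which can form channels without other subunits, averaged 14.8 CPM in TRAP and 9.22 CPM in input. Chrna2, Chrna6 and Chrnb3 averaged 1.15, 0.995 and 0.598 CPM in TRAP and 5.62, 1.52 and 0.853 CPM in input, the first with 1 KO input library at 38.7 CPM. Of the muscle-type subunits, Chrna1 averaged 2.07 CPM in TRAP and 2.13 CPM in input, while Chrnb1 averaged 0.327 and 1.98 CPM and Chrne 0.192 and 0.498 CPM.

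Chrnb4 pairs with the alpha-3 subunit in autonomic ganglia and in the medial habenula. It was at 0.557, 0, 1.65, 0.188 and 2.16 CPM in KO TRAP and at 0.237, 6.11, 0, 3.37 and 1.65 CPM in WT TRAP, against 1.35, 3.23, 9.07, 5.74 and 8.71 CPM in KO input and 33.0, 3.39 and 63.2 CPM in WT input 1, 2/3 and 5. High values stood in WT input 1 and 5, and the ranges of TRAP and input overlapped. The log2 fold change was -3.15 ± 0.81 (edgeR adjusted p = 0.0214). Leaving out WT input 1 ended the call (-2.98, adjusted p = 0.0841), and it also ended without WT input 5 (-2.89, adjusted p = 0.110), without KO input 3 (-2.88, adjusted p = 0.0504) and without both libraries that held Xist and Y-linked RNA (-2.83, adjusted p = 0.136). Within runs the difference was -2.72 and -3.59. It was -2.60 in KO libraries alone and -3.69 in WT libraries alone (adjusted p = 0.358 and 0.0925). In WT input 5 the cholinergic markers Chat, Slc18a3 and Slc5a7 summed to 73.3 CPM, the highest of all libraries, but in WT input 1 to 19.6 CPM. The glutamatergic marker Slc17a7, chosen after its values were seen, was at 1.52 to 53.6 CPM in KO input. In WT input 1, 2/3 and 5 it was at 61.1, 13 and 101 CPM, high in the same WT input libraries as Chrnb4. Elsewhere the 2 genes did not move together. Slc17a7 reached 53.6 CPM in KO input 2, 58.9 CPM in KO TRAP 3 and 61.4 CPM in WT TRAP 4, where Chrnb4 was at 3.23, 1.65 and 3.37 CPM. The whole glutamatergic list (Slc17a6, Slc17a7 and Camk2a) summed to 183 to 348 CPM in KO TRAP and 180 to 377 CPM in WT TRAP, against 351 to 599 CPM in KO input and 378 to 660 CPM in WT input, and 1 of its 3 genes was called lower in TRAP. The part of these markers in the result was not tested.

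Chrna5, Chrna3 and Chrnb4 lie side by side on chromosome 9 (mm10, 54980880 to 55048544), the first on the plus strand and the other two on the minus strand. Chrna3 and Chrna5, named for this position after their values were seen, did not follow Chrnb4 past the threshold. Chrna3 averaged 14.5 CPM in TRAP and 17.6 CPM in input (log2 fold change -0.51 ± 0.54, adjusted p = 0.671), and Chrna5 1.44 and 1.84 CPM (0.58 ± 1.23, adjusted p = 0.854).

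**Figure D4:**
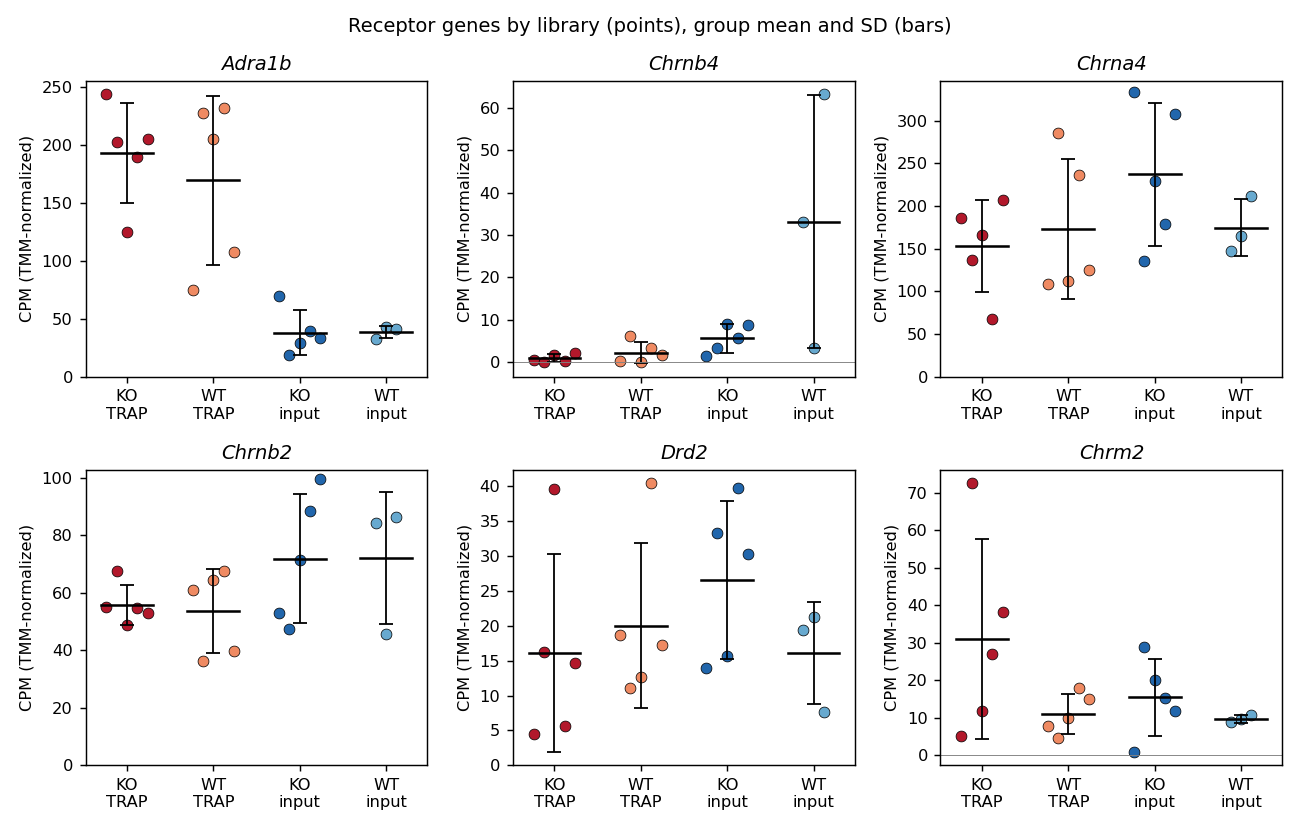
CPM of 6 receptor genes in each library (points), with group mean (line) and SD (bars), TRAP groups left of input groups and KO left of WT. Adra1b is 74.8 CPM or more in TRAP and 69.6 CPM or less in input, while the mean of Chrnb4 in WT input rests on the libraries at 33.0 and 63.2 CPM.

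Dopamine receptor transcripts were mostly Drd2, the Gi-coupled receptor found on many midbrain neurons. Drd2 was at 4.46, 16.2, 39.6, 5.64 and 14.6 CPM in KO TRAP and at 18.7, 11.1, 12.7, 40.4 and 17.2 CPM in WT TRAP, against 13.9, 33.3, 15.6, 39.7 and 30.2 CPM in KO input and 19.4, 21.2 and 7.71 CPM in WT input. The groups overlapped, and the log2 fold change of TRAP over input was -0.21 ± 0.45 (adjusted p = 0.853). Drd1a, Drd5 and Drd4 averaged 1.45, 2.44 and 0.0433 CPM in TRAP and 1.26, 2.85 and 0.259 CPM in input.

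The 3 histamine receptors tested all had positive TRAP to input differences, and none passed the test. Hrh1, the Gq-coupled H1 receptor, averaged 10.2 CPM in TRAP and 5.72 CPM in input (log2 fold change 1.03 ± 0.72, adjusted p = 0.470). For Hrh2, the Gs-coupled H2 receptor, the means were 6.50 and 2.28 CPM (1.27 ± 0.91, adjusted p = 0.487). By group Hrh2 averaged 10.6 CPM in KO TRAP and 2.40 CPM in WT TRAP, against 2.56 CPM in KO input and 1.81 CPM in WT input. Hrh3, the H3 receptor known as an autoreceptor and as a brake on release of other transmitters, averaged 24.1 CPM in TRAP and 19.5 CPM in input (0.25 ± 0.51, adjusted p = 0.845). These receptors were named after their values were seen, and their spread between libraries was wide: Hrh3 ranged from 3.77 to 49.1 CPM within KO TRAP alone.

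KO was compared with WT in each kind of RNA to ask whether loss of Celf6 changes receptor transcripts. No receptor passed the threshold in TRAP (16 tested) or in input (23 tested). Celf6 itself did not pass it either, at a log2 fold change of -1.517 ± 0.377 in TRAP and -1.565 ± 0.66 in input (SE). A missing call in these comparisons therefore does not show that a receptor was unchanged. Each kind was fitted on its own libraries. Of all genes, 0% of 12204 in TRAP and 0% of 13036 in input were called by edgeR at an adjusted p below 0.05. At an unadjusted p below 0.05 stood 1 of 16 receptors in TRAP, against 3.73% of all genes, and 1 of 23 in input, against 2.88%. DESeq2 called 0 receptors in either kind. The median log2 fold change was 0.33 over the 16 receptors in TRAP, 10 of them above 0, and 0.44 over the 23 in input, 15 of them above 0, against 0.03 and 0.02 over all genes tested. Of all genes tested, 52% in TRAP and 51.3% in input were above 0.

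**Figure D5:**
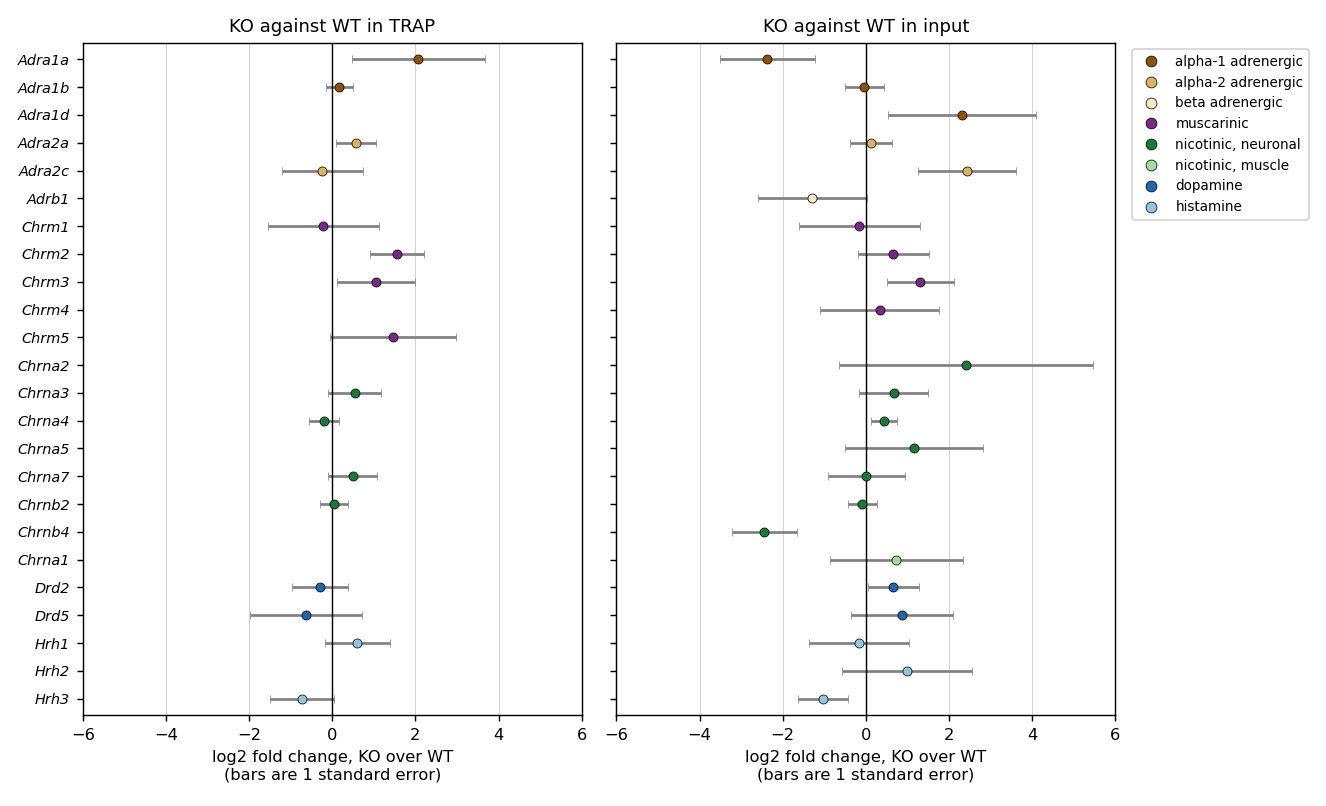
Log2 fold change of KO over WT with its standard error (bars) in TRAP (left) and input (right) for the 24 receptor genes tested in either, coloured by family. Chrm2 at 1.56 in TRAP and Chrnb4 at -2.44 in input have the smallest p of each panel, and no gene passed an adjusted p of 0.05.

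Chrm2 had the smallest edgeR p of the 16 receptors tested in TRAP. It was at 5.01, 72.6, 11.7, 26.9 and 38.3 CPM in KO TRAP and at 7.81, 4.70, 10, 17.8 and 15.1 CPM in WT TRAP. KO TRAP 2, 4 and 5 stood above all WT TRAP libraries and KO TRAP 1 among the lowest, so the groups overlapped. The log2 fold change was 1.56 ± 0.65, and with single libraries left out it lay between 0.53, without KO TRAP 2, and 1.80, without KO TRAP 1. The edgeR p was 0.0267 before and close to 1 after adjustment, and a 2-sided exact permutation test of mean log2 CPM gave p = 0.183, where the smallest that 5 against 5 allows is 0.00794. Hrh2 was among the 23 receptors too low for the edgeR test in TRAP, and its exact permutation p there was lower, at 0.0635.

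Adra1a and Adra2a followed. Adra1a was at 19.1, 3.92, 3.45, 4.52 and 1.35 CPM in KO TRAP and at 1.66, 0, 0, 7.46 and 4.96 CPM in WT TRAP (log2 fold change 2.07 ± 1.60, edgeR adjusted p close to 1, exact permutation p = 0.214). Without KO TRAP 1 it was 1.07. The difference was 3.40 within run 1 and -1.16 within run 2. Adra2a was at 24.7, 40.2, 30.3, 19.8 and 33.4 CPM in KO TRAP and at 14.0, 21.0, 9.69, 35.1 and 24.8 CPM in WT TRAP (0.57 ± 0.48, adjusted p close to 1, exact permutation p = 0.167), with 0.60 without KO TRAP 1, 1.11 within run 1 and -0.20 within run 2. Neither direction held in both runs. Adra1b, the receptor highest in TRAP, differed by 0.17 ± 0.33 between KO and WT in TRAP and by -0.03 ± 0.47 in input, short of the threshold in both. The sign in input turned to 0.051 without WT input 5.

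In input the smallest p was that of Chrnb4, for which all 5 KO libraries stood at 9.07 CPM or less while WT stood at 33.0, 3.39 and 63.2 CPM. The log2 fold change was -2.44 ± 0.79 (edgeR p = 0.00724, adjusted p = 1), and the exact permutation p was 0.125, where the smallest that 5 against 3 allows is 0.0179. Without WT input 5 the log2 fold change was -2.01. Chrnb4 lies 4.53 megabases from Celf6 on chromosome 9, as do Chrna3 at 4.55 and Chrna5 at 4.57 megabases, while Drd2 lies at 10.2 megabases. Sequence that travels with the Celf6 mutation cannot be told apart from the mutation in this design.

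Adra1a was at 2.03, 2.50, 4.97, 0.956 and 0 CPM in KO input and at 3.14, 19.7 and 5.04 CPM in WT input (log2 fold change -2.37 ± 1.14, edgeR adjusted p = 1; exact permutation p = 0.0893), and the difference was -1.86 without WT input 5. In TRAP its difference had the opposite sign. Adra2c, the alpha-2C receptor, was at 18.9, 1.32, 5.18, 11.5 and 5.23 CPM in KO input and at 0.698, 1.86 and 2.08 CPM in WT input, with KO input 2 inside the WT range. Its log2 fold change was 2.43 ± 1.18 (edgeR adjusted p = 1; exact permutation p = 0.0893), 2.69 without WT input 5 and 1.56 without KO input 1.

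Whether KO and WT differed in TRAP by another amount than in input was tested directly, and 0 of 30 receptors passed an adjusted p of 0.05, against 0% of 14261 genes. At an unadjusted p below 0.05 it was also 0 of 30, against 3.88% of all genes, and DESeq2 called 0 receptors. The smallest p belonged to Adra1d, Adra2c and Adra2b, the low alpha receptors. Adra1d was at 0, 0.653, 0, 0.376 and 1.62 CPM in KO TRAP and at 10.9, 0, 3.52, 0 and 0.709 CPM in WT TRAP, against 0.507, 1.91, 0, 2.63 and 2.32 CPM in KO input and 0, 0.339 and 0.297 CPM in WT input (difference -5.37 ± 2.68 on the log2 scale, edgeR adjusted p = 1). For Adra2c the difference was -2.71 ± 1.43 and for Adra2b -4.30 ± 2.41 (adjusted p = 1 each), the last fitted on a group at 0. Without KO TRAP 1 and WT input 5 the differences were -5.07 for Adra1d, -2.79 for Adra2c and -4.39 for Adra2b. With 3 counts taken for the KO TRAP group, Adra2b stood 7.37-fold lower in KO TRAP than in WT TRAP, where it had 19 counts in 3 of 5 libraries. This value allows for counting error in KO TRAP only, not for that of the 19 counts or the spread between libraries. Adra2b was too low for the edgeR test of KO against WT in TRAP, and the exact permutation p was 0.167.

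Genes that supply the ligands and carry the signals gave the surroundings of the receptors. Over all 14261 genes tested, 2.41% were called higher and 2.31% lower in TRAP, and no list was tested as a set. Of 6 tested genes for catecholamine supply and breakdown, 2 were higher and 1 lower in TRAP. Maob and Maoa, the monoamine oxidases, were higher by 2.84 ± 0.40 and 1.54 ± 0.25 on the log2 scale (adjusted p = 4.64e-05 and 0.000287 in edgeR), and Maob is also one of the serotonergic markers. Slc6a2, the noradrenaline transporter, was lower at -2.58 ± 0.55 (adjusted p = 0.00568). Of 9 nicotinic assembly and lynx-type genes, 1 was higher and 2 lower. Lypd1 was higher at 1.21 ± 0.26 (adjusted p = 0.0064). Lynx1, which damps nicotinic receptors, was lower at -1.30 ± 0.19 (adjusted p = 7.57e-05), and so was Tmem35, needed for nicotinic assembly, at -1.71 ± 0.42 (adjusted p = 0.0171). Adcy1, a calcium-stimulated adenylyl cyclase, was the only one of 8 cyclases called, at -0.83 ± 0.16 (adjusted p = 0.00208).

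None of the 12 G protein alpha subunits passed the test, nor did any of 6 acetylcholine genes, 2 histamine genes, 4 phospholipase C beta genes, 7 receptor kinases and arrestins, 16 RGS proteins or 4 GIRK potassium channels. The nearest were Rgs11 at 2.23 ± 0.67 (adjusted p = 0.0543), Rgs8 at -0.62 ± 0.20 (0.0696) and Arrb1 at -0.57 ± 0.19 (0.0781). Chat, which makes acetylcholine, had a difference of -1.31 ± 0.74 and Hdc, which makes histamine, of -0.76 ± 1.12. In TRAP against input the list medians ranged from -0.55 for catecholamine supply to 0.25 for kinases and arrestins, against 0.03 over all genes tested. Between KO and WT, no gene of any of these lists passed the test in TRAP or in input.

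The authors' tables of isoform use held 1 receptor event among 8935 splicing and 960 tandem UTR events, an alternative 3′ end of Chrnb2. In mm10 it lies on chromosome 3 with UTR A from 89753446 to 89757098 (3653 bases) and UTR B from 89756303 to 89757098 (796 bases), and a PSI of 1 means UTR B per the file headers, a direction that could not be checked in these data. In TRAP the PSI was 0.047, 0.954 and 0.957 in KO libraries 2, 3 and 5, and 0.960, 0.942, 0.984, 0.941 and 0.962 in WT libraries. In input it was 0.968, 0.968 and 0.946 in KO libraries 1, 3 and 5, and 0.984, 0.966 and 0.922 in WT libraries 1, 2/3 and 5. KO TRAP 2 stood apart from all other libraries. The log2 odds differed by -3.14 ± 1.99 in TRAP (limma adjusted p = 0.837) and by -0.14 ± 0.69 in input (adjusted p = 1), and without KO TRAP 2 the difference in TRAP was -0.22. The authors' deposited table gives p = 0.200 in TRAP and 0.856 in input. It also marks Chrnb2 as bound by CELF6 in intron, coding sequence and 3′ UTR, by crosslinking and immunoprecipitation against its input. Of the 959 genes with a tandem UTR event in TRAP, 271 are marked as bound by CELF6, so the mark is common.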

How the data were processed

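The count files deposited by the authors hold whole-number counts for each gene, made with featureCounts 1.4.6-p5 without strand, per the file headers. The build mm10, Trimmomatic and STAR are named in the submitters' processing notes, the tools without versions. RNA was amplified with Nugen Ovation 2 before library preparation, per the labels. PSI values, fractions from 0 to 1, come from MISO in the authors' deposited tables, limited by the authors to credible intervals no wider than 0.2 per the design text. The p-values there are the authors' deposited values from an analysis of variance.

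The 4 repeat runs of replicate 3 and WT input 4 were left out. The remaining 18 libraries were tested with edgeR 4.0.16 in R 4.3.3 (quasi-likelihood test after filterByExpr and TMM, sequencing run as covariate, Benjamini-Hochberg adjustment over all genes tested, threshold 0.05). TRAP against input was the mean of the difference in KO and that in WT. DESeq2 1.42.0, other scaling and filters, single genotypes and runs, and each library left out were alternatives. Log2 CPM used a prior count of 2. PSI was held between 0.01 and 0.99 and compared with limma 3.58.1 on log2 odds, in events with at least 3 values per genotype. The fits were also run on simulated data with known changes. The outcome is not given here, so nothing about the results above is drawn from it.

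Fold changes were printed for receptors past the threshold, for the 5 with the smallest p in TRAP against input and the 3 in each other comparison, and for the 5 with the highest level per kilobase in each RNA kind; for each pathway list the 3 with the smallest p were eligible. Results that need some items are not reported here. Other receptors were named after their values were seen. The members and lists were chosen with earlier results of these data known. P-values were computed against the spread between libraries, which may in part be technical. The main fits treated libraries as independent, although nothing says which TRAP and input samples share a brain.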

Additional observations from a re-analysis of the deposited data

Results flagged for a closer look

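Of 35 sets of 1 named receptor in 1 group of 5 libraries, 5 had a library far from the others, where chance flags about 5% of sets with normally distributed values. The rule was applied to CPM without logs and all 5 flagged values were high ones, so the 5% need not hold here. Adra1a was at 19.1 CPM in KO TRAP 1, against 1.35 to 4.52 CPM in the other KO TRAP libraries. KO TRAP 1 is 1 of the 2 libraries with both Xist and Y-linked RNA, and the part of this in this high value was not tested. In KO input 2, Adra2b was at 2.50 CPM, against 0 to 0.169 CPM in the other KO input libraries. Adra2c was at 22.4 CPM in KO TRAP 3, against 1.96 to 5.83 CPM in the rest of that group. In WT TRAP 4 it was at 27.2 CPM, against 2.04 to 7.79 CPM. Drd2 was also high in WT TRAP 4, at 40.4 CPM against 11.1 to 18.7 CPM. Only 2 of these 5 sets, Adra2c and Drd2 in WT TRAP, had all other libraries above 2 CPM.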

How the results depend on the processing

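The 2 receptors called in TRAP against input, Adra1b and Chrnb4, were both called with DESeq2, RLE normalization, no filter, no run covariate and WT input 2 and 3 apart. The count was 1 (Adra1b) in KO libraries alone, in WT libraries alone and without the libraries with both Xist and Y-linked RNA, an alternative chosen after seeing the data, and 1 to 2 with each library left out. Adra1b kept its call in every alternative with a test, at log2 1.87 to 2.42. No receptor was called for KO against WT or for the difference of differences in any alternative. Libraries of equal number showed little residual correlation (r from -0.19 to 0.04), which cannot exclude that they share a brain. In KO replicates 2 to 5 and WT replicate 1, TRAP and input held the same kind of sex-linked RNA. WT TRAP 2 and WT TRAP 3 both held the same kind as WT input 2/3, which counts as 1 sample. In KO replicate 1 and WT replicate 5, 1 library held both kinds. With the replicate block the receptor counts were 2, 0, 0 and 0. All genes called in TRAP against input went from 673 to 1290 with DESeq2, 1065 without the filter, 207 with the block, 124 in KO and 160 in WT alone, 337 without the libraries with both kinds of RNA, and 346 to 831 with each library left out; the cause was not tested.

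Signs turned in 1 sequencing run for Adra1a (-1.16) and Adra2a (-0.20) between KO and WT in TRAP and for Adra2b in TRAP against input (0.19), none of them called. They also turned for Drd2 in TRAP against input in WT alone (0.17), Adra1b between KO and WT in TRAP with single libraries left out (-0.022 to 0.371), Adra1b between KO and WT in input with the replicate block (0.40), without the libraries with both kinds of RNA (0.051), without WT input 2/3 (0.044) and with other single libraries left out (-0.473 to 0.159), and the Chrnb2 PSI in input (-0.76 to 0.45 with each library left out). At least 4 PSI values per genotype could not be had in either kind. For receptors at 1 to 10 CPM the standard deviation between libraries of a group was 1.22 to 1.94 on the log2 CPM scale. The part of depth in this spread was not tested.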
